A study of Paracentrotus lividus with 54 samples.

Results

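The 300 gene models of the sea urchin Paracentrotus lividus that cover the longest stretches of the genome were described across development and adult tissues. A gene model is a predicted gene with its exons, and its span is the highest exon end minus the lowest exon start. The 300 longest spans were taken from 33922 gene models, which is 0.884% of them, and no expression value entered the choice. Models of similar exon length but short span served as the comparison.

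RNA was sequenced from 22 wild-type samples, 1 library each, with no replicate of any stage or tissue. The 17 developmental libraries were whole eggs (0 h), the 2-cell (2 h), 4-cell (3 h), 8-cell (4 h), 16-cell (4.5 h), 32-cell (5 h), 64-cell (5.5 h) and 128-cell (6 h) stages, early blastula (6.5 h), blastula (7.5 h), swimming blastula (12 h), early mesenchyme blastula (18 h), late mesenchyme blastula (20 h), early gastrula (21 h), late gastrula (24 h), prism (36 h) and pluteus larva (48 h). The 5 adult libraries came from tubefeet, bodywall, ovaries, gut and the jaw apparatus known as Aristotle's lantern. Open chromatin was measured by ATAC-seq, which cuts accessible DNA with a transposase, in whole embryos at the 16-cell, early blastula, late blastula, gastrula, prism and pluteus stages, in 28 wild-type samples with differing numbers of nuclei. The authors' peak lists come 1 per stage.

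The time RNA polymerase needs to copy a gene grows with the length of the gene, introns included, because introns are transcribed before they are spliced out. Early cleavage cycles of sea urchin embryos are short, and the egg carries a store of maternal transcripts. Introns also often hold enhancers, the regulatory elements that ATAC-seq can detect as accessible peaks.

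Library totals ranged from 14657193 counts in bodywall to 36305776 in ovaries. The prism library stood apart, with a scaling factor of 0.420 against 0.970 to 1.47 in the other developmental libraries, so counts that use it are also given without it. All libraries but bodywall (21 of 22) held even counts only, so counting intervals use these counts divided by 2. Reads were counted with strand option 1, and the strand of the kit was not given in the sources used here, so reads of a transcript on the other strand may have been counted. No table paired the model identifiers with gene names, so members are given by identifier and position. Positions are on scaffolds of a genome assembly that the labels and file headers do not name.

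The members spanned 102892 to 379786 bases, with a median of 128516, against a median of 6458.5 bases over all models. The model just inside the limit spanned 102892 bases and the one just outside spanned 102873 bases. The longest model lay on the plus strand of scaffold 3429, from base 8480472 to base 8860258, and 279528 of its bases were its first intron. Its exons summed to 2981 bases. Counts scaled to the library total (CPM) were 0 to 1.16 CPM in the developmental libraries and 11.5 CPM in tubefeet, its highest library.

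Introns made up most of each span, 96.5% in the median member. The members' exon length was 318 to 33754 bases with a median of 5108, against a median of 1096 over all models. They had a median of 17 exon blocks, against 4 over all models. In 111 of the 300 members a single intron took up more than 50% of the span. The first intron was the longest in 35.0% of the members and in 49.7% of the other models with introns. These shares are not like for like. The other models include those with a single intron, which is the longest by definition, and members had more exon blocks. No share matched on exon number was computed. Members lay on 27 scaffolds, 161 on the plus strand and 139 on the minus strand. Scaffold 174 held 41 of them, more than any other scaffold. Another 346 models lay wholly inside 126 of the members, and 147 of these were on the member's own strand, where reads from unspliced RNA of the member cannot be told apart from reads of the inner model.

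A short-span partner, with exon length within 10% and a span at least 10 times shorter, was found for 244 members. The other 56 had no such partner. The partners had a median span of 9136 bases, against 131100 bases in the 244 matched members, at median exon lengths of 3879 and 3880.5 bases. They had fewer exon blocks, however, with a median of 5 against 13.5 in the matched members. A further set of 266 partners was therefore matched on exon number as well as exon length, each within 25%, with a span at least 4 times shorter. Its median was 14 exon blocks both in the 266 members and in the partners, and its median span was 20830.5 bases in the partners.

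Most members were already present in the egg, in a share close to that of their partners. At a level of 1 CPM or more, 219 of the 300 members (73.0%) were on in the egg, against 39.0% of all models. Among the pairs, 167 of 244 matched members (68.4%) and 178 of 244 short-span partners (73.0%) were on in the egg. With exon number matched as well, 189 of 266 members and 192 of 266 partners were. The higher share against all models was thus seen in both partner sets as well.

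Later onsets were few and spread over development. Among the 300 members, 32 first reached 1 CPM between the 2-cell and 128-cell stages, 15 between early blastula and late mesenchyme blastula, and 13 between early gastrula and pluteus larva. Of the 244 matched members these were 30, 14 and 12, and of the 244 short-span partners 21, 14 and 9. In 21 of the 300 members (7.0%) no developmental library reached 1 CPM, against 36.3% of all models. All 21 were among the 244 matched members (8.61%), and the same held for 22 of the 244 short-span partners (9.02%). Of all 33922 models, 3560, 2996 and 1820 had their onset in these 3 later periods. Models with 0 counts in the first 4 libraries that later reached 1 CPM numbered 5 matched members (2.05%) and 10 short-span partners (4.10%), 5 members and 3 partners in the set matched on exon number, and 4.95% of all models.

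The level of the members dipped at the blastula stages, by more than that of their partners. Levels are given as TPM, in which counts are divided by exon length and scaled to the library. The median of the 300 members was 4.71 TPM in the egg, 9.10 TPM at the 8-cell stage, 7.56 TPM at the 128-cell stage, 5.14 TPM at early blastula, 3.41 TPM at blastula and 2.12 TPM at swimming blastula. It was then 3.12 TPM at early mesenchyme blastula, 3.35 TPM at late mesenchyme blastula, 4.44 TPM at early gastrula, 6.22 TPM at late gastrula and 9.29 TPM in the pluteus larva. Only the prism library, at 1.19 TPM, was lower than swimming blastula, and there the median of all models was low as well, at 0.357 TPM. The lowest level among the other 16 developmental libraries was thus that of swimming blastula.

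Set beside the partners, the gap widened during this dip. The 244 matched members had a median of 8.11 TPM at the 8-cell stage, against 12.6 TPM in the short-span partners. With partners at most a twentieth of the member's span, the members were the higher at the 8-cell stage, with 4.59 TPM against 3.57 TPM in those partners. At swimming blastula the member was the higher in only 37.1% of those pairs, and the partners' median was 4.22 TPM. In the main pairs at swimming blastula the matched members had 1.82 TPM and the partners 9.68 TPM, so the partners' median was 5.33 times that of the members. In the pluteus larva the medians were 6.98 TPM in the matched members and 10.4 TPM in the partners. The member was the higher of the pair in 105 of 244 pairs at the 8-cell stage, in 73 of 244 at swimming blastula and in 96 of 244 in the pluteus larva. The partners matched on exon number dipped too, to 6.64 TPM at swimming blastula against 12.8 TPM at the 8-cell stage, but by less than the members. Their median was 1.48 times that of their members at the 8-cell stage and 3.31 times at swimming blastula. The 95% order-statistic intervals of the members' and short-span partners' medians overlapped at the 8-cell stage and in the pluteus larva, and did not at swimming blastula. These sets are a description, since models are not replicates of a condition and 1 library stands for each stage.

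**Figure D1:**
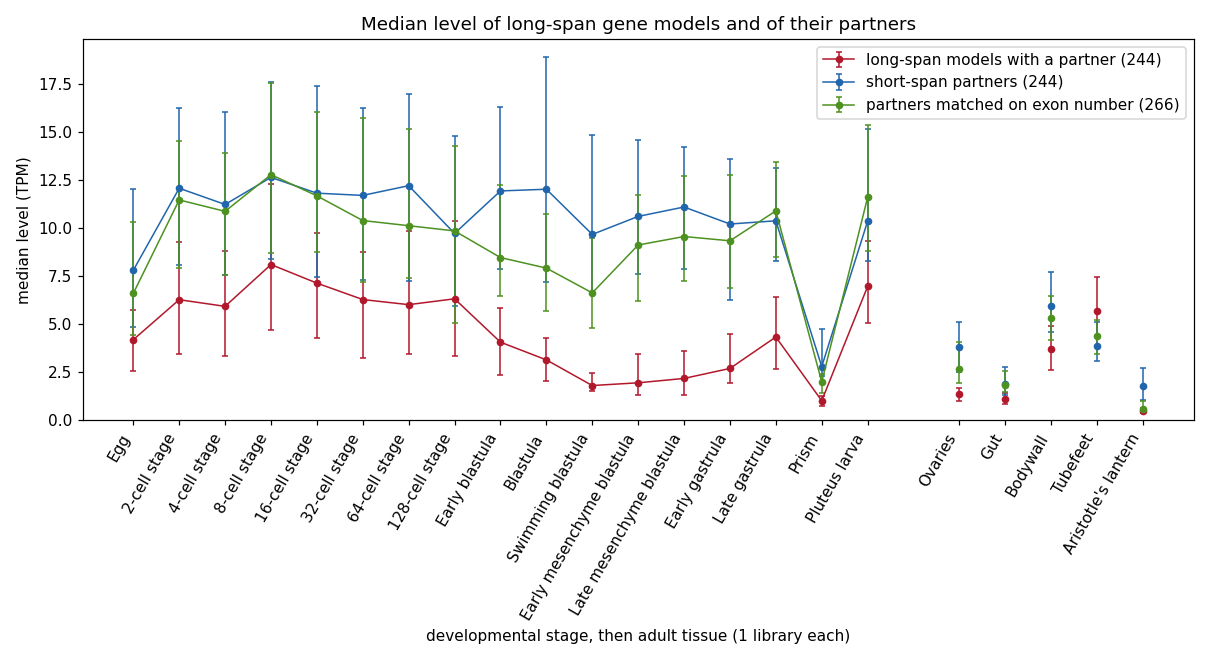
Median level in TPM (y axis) of the 244 long-span models with a partner, their 244 short-span partners and the 266 partners matched on exon number, in each of 17 developmental libraries in stage order and 5 adult libraries (x axis). Bars are 95% order-statistic intervals over models and hold no replicate error. The long-span models fall to 1.82 TPM at swimming blastula, where the short-span partners are at 9.68 TPM, and in tubefeet the long-span models are at 5.71 TPM and the short-span partners at 3.87 TPM.

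The drop in TPM from the 8-cell stage to swimming blastula followed span in classes of models of like exon length. All models with at least 2 exon blocks and an exon length between the members' quartiles, 2475.75 and 7978.75 bases, were divided by span. The ratio of the median level at swimming blastula to that at the 8-cell stage was 0.174 in the 150 members in this range. It was 0.266 in 158 models from 80001 to 102873 bases, 0.359 in 1112 models from 40001 to 80000 bases, 0.498 in 2142 models from 20001 to 40000 bases, 0.674 in 1768 models from 10001 to 20000 bases and 0.927 in 1161 models up to 10000 bases. The ratio was thus lower in each longer class. These levels do not use the scaling factors, which were 1.47 at the 8-cell stage and 1.04 at swimming blastula. The fit described below did use such factors. Its median log2 change from the first 4 stages to the blastulae was -0.54 in the members. In the shorter classes in turn it was -0.37, -0.11, 0.07, 0.21 and 0.56, so it was not a fall in classes up to 40000 bases. The median at the 8-cell stage did not fall with span in the same way, being 14.6 TPM in the members and 6.80 TPM in the shortest class. The median number of exon blocks was 19 in the members and 18, 17, 14, 9 and 4 in the classes of shorter span in turn, and its part in the ratio was not tested.

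**Figure D2:**
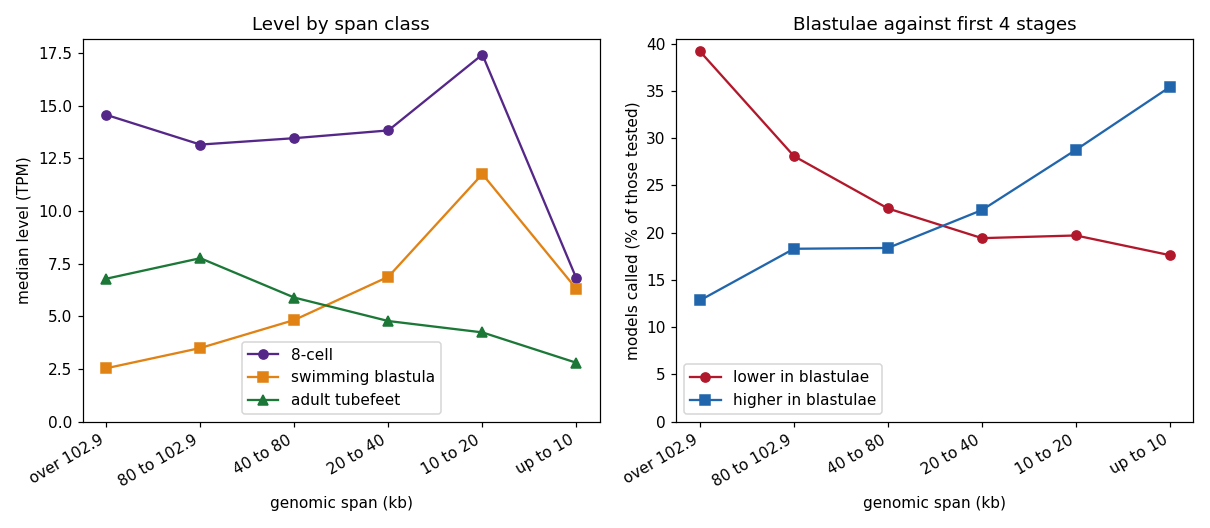
Models of like exon length in 6 classes of genomic span in kb (x axis, longest on the left). The left panel gives the median level in TPM at the 8-cell stage, at swimming blastula and in adult tubefeet, and the right panel the percentage of tested models called lower or higher in the blastulae than in the first 4 stages. The swimming blastula median is 2.54 TPM in the longest class and 6.30 TPM in the shortest, and models called lower are 39.2% in the longest class and 17.6% in the shortest.

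Changes of single models were tested by a smooth curve fitted to the counts over the 17 stages with edgeR's quasi-likelihood test. A call needed a Benjamini-Hochberg adjusted p under 0.05 over all 22940 models tested and a log2 change of at least 1 between the means of the curve over 2 windows of stages. With 1 library per stage, these p-values measure scatter around the curve and not the spread between cultures. Of the 300 members, 285 passed the filter on low counts. Between the first 4 stages (egg to 8-cell) and 4 blastula stages (blastula, swimming, early mesenchyme and late mesenchyme blastula), 90 of the 285 members were lower in the blastulae, or 31.6%, against 13.9% of all models tested. Higher in the blastulae were 45 members, or 15.8%, against 28.9% of all models. The blastula window was chosen after the levels had been seen.

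The same direction held against both partner sets. Lower in the blastulae were 78 of 229 tested matched members (34.1%) and 54 of 228 tested short-span partners (23.7%). Higher were 36 of those members and 74 of those partners. With exon number matched, 82 of 251 members (32.7%) and 44 of 248 partners (17.7%) were lower. The median log2 change from the first 4 stages to the blastulae was -0.30 over the tested members, 0.27 over the short-span partners and 0.45 over all models tested. Scaling by library size alone moved the median of all models to 0.24 and that of the members to -0.51.

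Counted without a model, the 4 blastula libraries all lay below the first 4 in 91 of the 285 tested members (31.9%), against 13.4% of all models tested. They all lay above in 19 members (6.67%), against 19.5% of all models. Among the short-span partners 49 of 228 lay below and 64 lay above. Without the egg library the fit called 88 members lower and 22 higher in the blastulae (54 of 228 short-span partners higher), so the number called higher depends on the egg. Without prism it called 103 lower and 44 higher.

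The 90 members called lower in the blastulae were chosen by these levels, which are therefore given as a description. Their median was 16.3 TPM in the egg, 26.9 TPM at the 8-cell stage, 18.4 TPM at the 128-cell stage, 10.3 TPM at early blastula, 5.80 TPM at blastula and 2.67 TPM at swimming blastula. It stood at 4.30 TPM at early gastrula, 6.46 TPM at late gastrula and 9.36 TPM in the pluteus larva. Of these 90, 64 were also lower in the last 4 stages than in the first 4, and 13 were higher in the last 4 stages than in the blastulae. Members with both a call lower in the blastulae and a call higher afterwards made up 4.56% of those tested, against 1.21% of all models.

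The last 4 stages (early gastrula, late gastrula, prism and pluteus larva) were then compared with the first 4. In these late stages 71 of the 285 members were higher (24.9%), against 36.5% of all models, and 80 were lower (28.1%), against 19.6%. Among the short-span partners 87 of 228 were higher (38.2%) and 60 were lower (26.3%). Without prism 65 of 283 members were higher and 86 were lower, and 78 of 226 short-span partners were higher and 75 were lower. Which direction was the more frequent in the members turned with the scaling and the tool, since edgeR with DESeq2's size factors called 78 higher and 72 lower, and DESeq2 called 83 and 74. The last 4 libraries all lay above the first 4 in 35 members (12.3%), against 17.6% of all models, and all below in 73 members (25.6%), against 18.3%. Without prism the other 3 late libraries all lay above in 67 members (23.5%), against 32.5% of all models, so prism decided much of the first count. They lay below in 73 members, against 18.8% of all models. A trend over all stages was called in 188 members (66.0%), against 64.7% of all models, so the share of members that changed at all was near the background. The trend was called in 179 of 228 short-span partners (78.5%) and 170 of 248 exon-number partners (68.5%).

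Compared with the blastulae, 62 of the 285 members were higher in the last 4 stages (21.8%), against 14.9% of all models, and 14 were lower (4.91%), against 8.8%. Of the short-span partners 41 of 228 were higher (18.0%) and 27 were lower. These 62 members were chosen by their late and blastula levels, which are therefore given as a description. The median of the 62 members was 1.51 TPM at swimming blastula, 4.72 TPM at early gastrula, 9.25 TPM at late gastrula and 19.1 TPM in the pluteus larva. Their level in the pluteus larva was thus above that in the egg, at 2.78 TPM. Without prism the counts were 61 members and 28 of 226 short-span partners.

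**Figure D3:**
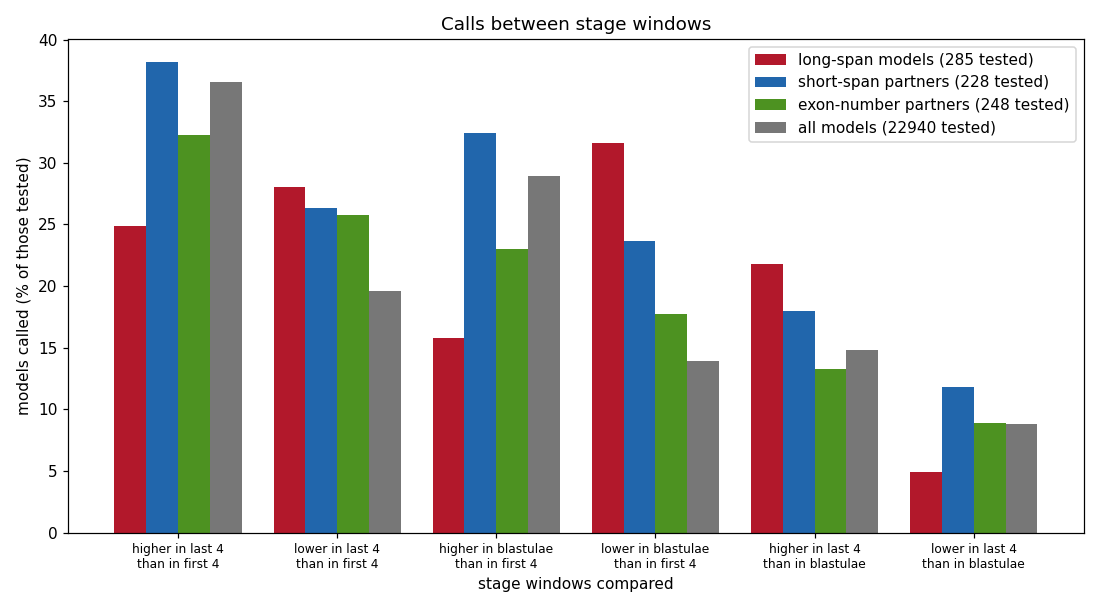
Percentage of tested models called (y axis) for 3 comparisons of stage windows in both directions (x axis), for the 285 long-span models tested, 228 short-span partners, 248 exon-number partners and all 22940 models. Calls need an adjusted p under 0.05 and a log2 change of at least 1. Long-span models are called lower in the blastulae in 31.6% and all models in 13.9%.

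The stage of the highest level differed from that of the short-span partners. Of the 244 matched members, 44 were highest at the 8-cell stage, 26 at the 128-cell stage, 9 at swimming blastula and 47 in the pluteus larva. Of the 243 short-span partners with counts, 15 were highest at the 8-cell stage, 8 at the 128-cell stage, 33 at swimming blastula and 25 in the pluteus larva. In the egg 23 matched members and 32 short-span partners were highest, and at the 2-cell stage 8 matched members and 17 partners. With exon number matched, 44 of 266 members (16.5%) and 46 of 264 partners (17.4%) were highest at the 8-cell stage, so the excess there was not seen in that set. At the 128-cell stage these were 30 members and 13 partners, at swimming blastula 10 members and 17 partners, and in the pluteus larva 55 members and 40 partners. Over all models 8.82% were highest at the 8-cell stage, 4.64% at the 128-cell stage, 8.69% at swimming blastula and 18.0% in the pluteus larva. No test was made between these lists.

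PL10711 had the largest fitted rise among the members with non-overlapping early and late levels. It lay on the minus strand of scaffold 174 from base 75046298 to base 75198131, at rank 93 by span, and had 5 exon blocks. It had 2.30 CPM at early gastrula, 7.65 CPM at late gastrula, 9.90 CPM at prism and 19.5 CPM in the pluteus larva, against no count in the egg, 2-cell, 4-cell or 8-cell library. No earlier developmental library exceeded 0.266 CPM, so early gastrula was the first stage above 1 CPM. Its late level was at least 37.4-fold higher than a floor of 3 halved counts per library in the first 4 stages. The curve changed by 10.81 on the log2 scale (SE 1.50, edgeR adjusted p = 3.81e-05), a value that depends on the prior count. In adult bodywall it had 14.1 CPM and in tubefeet 0.234 CPM.

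PL14285 rose earlier. It lay on the minus strand of scaffold 3434 from base 1090402 to base 1200925, at rank 254. It had 6.82 CPM at early gastrula, 4.74 CPM at late gastrula, 2.63 CPM at prism and 8.36 CPM in the pluteus larva, against 0 counts in the egg, 2-cell and 4-cell libraries and 0.0872 CPM at the 8-cell stage. Its first level above 1 CPM was 6.57 CPM at early mesenchyme blastula. Against a single halved count in the first 4 libraries the ratio was 250.3 (95% exact interval 44.5 to 9920, counting error only). The fitted change was 10.34 (SE 1.58, edgeR adjusted p = 1.62e-05).

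PL25794 had the largest fitted fall. It lay on the plus strand of scaffold 649 from base 26934483 to base 27138707, at rank 44. It had 0.369 CPM at early gastrula, 0.911 CPM at late gastrula, 0.211 CPM at prism and 0.472 CPM in the pluteus larva, against 89.8 CPM in the egg, 130.5 CPM at the 2-cell, 135.0 CPM at the 4-cell and 158.7 CPM at the 8-cell stage. Between these windows the level was 127.5 CPM at the 128-cell stage, 75.1 CPM at early blastula, 31.1 CPM at blastula and 10.3 CPM at swimming blastula. Most of the decline in CPM thus lay between the 128-cell stage and swimming blastula. The level then fell to 0.976 CPM at early and 0.284 CPM at late mesenchyme blastula, a larger drop on the log2 scale. The fitted change was -7.83 (SE 0.48, edgeR adjusted p = 5.64e-10).

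PL14317 fell and was high again in an adult tissue. It lay on the minus strand of scaffold 3434 from base 30468018 to base 30587847, at rank 199, and 98883 of its bases were its first intron. It had 0.184 CPM at early gastrula, 1.55 CPM at late gastrula, 2.00 CPM at prism and 3.57 CPM in the pluteus larva, against 162.5 CPM in the egg, 98.1 CPM at the 2-cell, 85.9 CPM at the 4-cell and 74.0 CPM at the 8-cell stage. The fitted change was -5.68 (SE 0.48, edgeR adjusted p = 1.65e-08). Without prism the fitted changes were 10.30 for PL10711, 10.46 for PL14285, -8.07 for PL25794 and -6.45 for PL14317. Tubefeet had 96.1 CPM, Aristotle's lantern 22.5 CPM, ovaries 15.9 CPM, bodywall 13.6 CPM and gut 4.69 CPM.

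**Figure D4:**
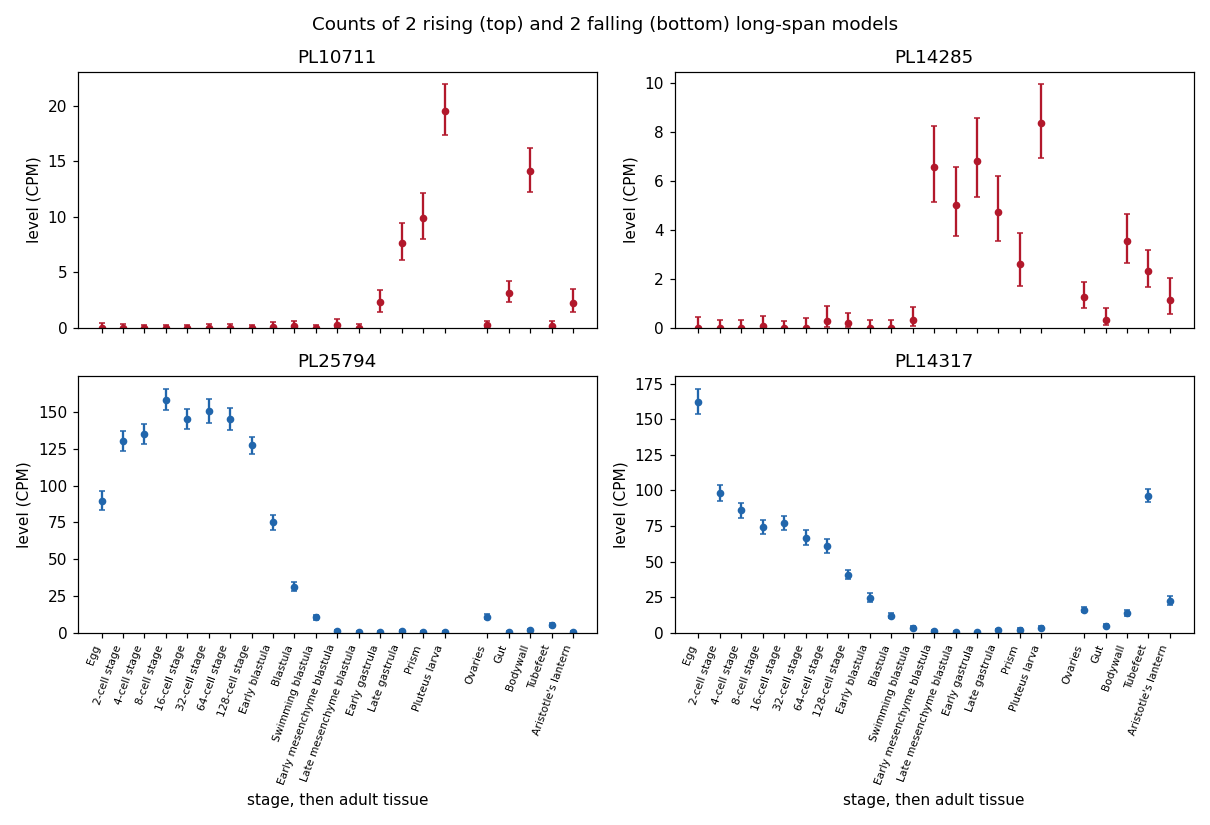
Level in CPM (y axes, each starting at 0) of PL10711 and PL14285 (top) and PL25794 and PL14317 (bottom) in 17 developmental and 5 adult libraries (x axis). Bars are exact 95% Poisson intervals and cover counting error only. PL10711 reaches 19.5 CPM in the pluteus larva, and PL14317 has 162.5 CPM in the egg and 96.1 CPM in tubefeet.

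Among the adult tissues the members were highest in tubefeet. Their median was 6.59 TPM in tubefeet, 4.05 TPM in bodywall, 1.30 TPM in gut, 1.25 TPM in ovaries and 0.533 TPM in Aristotle's lantern. These levels do not use the scaling factors, which were 0.261 for Aristotle's lantern and 0.456 for gut. The other adult factors lay between 0.744 and 0.989. Over all models the median was 0.212 TPM in Aristotle's lantern, 0.410 TPM in gut and 0.476 TPM in ovaries. It was 1.54 TPM in bodywall and 1.36 TPM in tubefeet. The order of the members' 3 lowest tissues may thus depend on scaling. Of the 244 pairs, the medians in tubefeet were 5.71 TPM in the matched members and 3.87 TPM in the short-span partners, the only 1 of the 22 libraries in which the members' median was the higher. The 95% order-statistic intervals over models overlapped in tubefeet. In ovaries the matched members had 1.40 TPM and the partners 3.83 TPM. In bulk tissue, more cells of a type and more RNA per cell cannot be told apart.

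Of the 299 members with counts in an adult library, 173 were highest in tubefeet (57.9%), 73 in bodywall, 41 in ovaries, 7 in Aristotle's lantern and 5 in gut. These and the following counts use TPM without the scaling factors. Of the 242 short-span partners with counts, 57 were highest in tubefeet (23.6%), 62 in bodywall and 89 in ovaries. With exon number matched, 151 of 265 members (57.0%) and 78 of 261 partners (29.9%) were highest in tubefeet. Over all models 32.1% were. Without the tubefeet library, 186 of 299 members (62.2%) and 86 of 238 short-span partners (36.1%) were highest in bodywall. So were 138 of 259 exon-number partners (53.3%) and 47.1% of all models. Of members that fell late in development 50 of 80 were highest in tubefeet, and of members that rose 39 of 71. These shares lay on either side of the 57.9% over all members.

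Restriction to 1 adult tissue was rare. A model counted as restricted with 5 CPM in 1 tissue and 8 times the next tissue, after scaling. This held for 21 of the 300 members in tubefeet (7.0%), against 1.47% of all models, and for 17 of the 244 matched members and 1 of their short-span partners. With exon number matched the sets were close at this threshold, at 16 of 266 members (6.02%) and 12 of 266 partners (4.51%). At 4 times the next tissue they were 33 of 266 members (12.4%) and 18 of 266 partners (6.77%). The size of the difference from models of like exon number thus depended on the threshold. Restriction to Aristotle's lantern was found in 1 member, against 0.985% of all models. No member was restricted to ovaries, gut or bodywall, where 0.799%, 0.292% and 0.0855% of all models were. In any tissue 22 members were restricted (7.33%), against 3.63% of all models.

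Accessible chromatin in the introns was compared through 5 peak lists made by the authors, which hold 30683 peaks at the 16-cell stage, 142485 at blastula, 154157 at gastrula, 112026 at prism and 44711 at pluteus. The lists for early and late blastula were identical and are used as 1 blastula list, and which of the blastula samples it covers is not known. None of the lists holds a peak on scaffold 174, so the 41 members there, PL10711 among them, and the other models on scaffolds with no peak in any list were left out, which leaves 259 members and 30705 models. A peak was counted in an intron where its summit lay inside a model's span and outside the exons of every model. Lists carry no replicate error, and the intervals cover counting error only.

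Each of the 259 members held at least 1 intronic peak in the blastula, gastrula and prism lists. The median member held 3 peaks at the 16-cell stage, 16 at blastula, 20 at gastrula, 14 at prism and 4 at pluteus. The highest number in 1 member was 45 at the 16-cell stage, 85 at blastula, 80 at gastrula, 74 at prism and 48 at pluteus. At the 16-cell stage 21 members held none, and at pluteus 18 held none. PL25794 held 3, 35, 25, 13 and 3 peaks in these lists, PL14317 held 0, 15, 18, 10 and 0, and PL14285 held 4, 11, 12, 7 and 2.

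Per base of intron the members did not hold many more or fewer peaks than other models. At the 16-cell stage they had 28.5 peaks per Mb (95% Poisson interval 26.8 to 30.3), against 29.6 in the introns of all other models. At blastula they had 129.1 peaks per Mb (125.4 to 132.8), against 143.7 in the other introns (142.4 to 145.1). At gastrula the members had 162.4 (158.3 to 166.6), against 156.7 in the other introns (155.3 to 158.1). At prism the densities were 116.6 in the members and 111.8 in the others, and at pluteus 43.9 and 42.7. The ratio of members to others was thus 0.898 at blastula and 1.04 at gastrula. When any overlap of a peak with an intron was counted in place of the summit, the ratio at gastrula became 0.945 and that at prism 0.943, so the direction at these stages depends on how a peak is assigned.

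The exon-number partners had 127.1 intronic peaks per Mb at blastula (116.2 to 138.8) and 124.1 at gastrula (113.3 to 135.6), against 129.1 and 162.4 in the members. At prism they had 86.6 (77.6 to 96.4), against 116.6 in the members (113.1 to 120.1). At pluteus they had 33.3 (27.8 to 39.6), against 43.9 (41.8 to 46.1). At the 16-cell stage the intervals overlapped, at 23.1 (18.5 to 28.4) against 28.5 (26.8 to 30.3). The members were thus denser than these partners from gastrula on. The short-span partners had only 1.22 Mb of intron, with 165.8 peaks per Mb at blastula (143.8 to 190.2) and 164.2 at gastrula (142.3 to 188.5).

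Peaks new in the gastrula list were more frequent in the introns of members. A peak was new where no blastula peak overlapped it by at least 50% of the shorter of both. This held for 2205 of 5953 gastrula peaks in members (37.0%, 95% exact interval 35.8 to 38.3) and for 13740 of 49236 in other models (27.9%, 27.5 to 28.3). Blastula peaks with no gastrula counterpart had overlapping intervals, at 21.5% in members (20.3 to 22.7) and 21.8% in other models (21.5 to 22.2). With the same number of top-scoring peaks from each list the shares of new gastrula peaks were 34.9% in members and 25.7% in other models. Peaks within 1 model are not independent of each other, so the intervals are too narrow.

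Within the members the density of peaks was highest near the start of the model. At gastrula it was 210.9 peaks per Mb within 5 kb of the start (185.4 to 238.9), 192.2 from 5 to 20 kb, 172.4 from 20 to 50 kb, 152.7 from 50 to 100 kb and 152.2 beyond 100 kb (145.2 to 159.4). At pluteus it was 91.4 within 5 kb (74.9 to 110.4), 36.2 from 50 to 100 kb (33.0 to 39.7) and 42.3 beyond 100 kb (38.7 to 46.2). At the 16-cell stage it was 31.6 within 5 kb (22.2 to 43.5) and 31.4 beyond 100 kb (28.3 to 34.7), with no such decline. The decline with distance up to 100 kb was thus visible in the later lists.

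Pooled over models, the members lower in the blastulae also had fewer intronic peaks per Mb. The 74 such members with peak data had 112.3 peaks per Mb at blastula (106.1 to 118.9), against 134.2 in the other 171 tested members (129.6 to 138.9). At gastrula they had 152.7 (145.4 to 160.3), against 169.4 (164.2 to 174.7). At prism they had 108.2 (102.0 to 114.6), against 122.3 (117.9 to 126.8). At the 16-cell stage they had 25.1 against 29.6 and at pluteus 40.6 against 46.5, with overlapping intervals. The lower density was thus not particular to the blastula list. The median number per model was close, at 15.5 peaks against 16 at blastula and 19 against 20 at gastrula. The 40 members higher in the blastulae had 143.7 at blastula (134.0 to 153.8), against 124.2 in the other 205 tested members (120.1 to 128.3). Their density was also above that of the others at the 16-cell stage, at 34.3 (29.6 to 39.4) against 27.0 (25.1 to 29.0). At gastrula the intervals overlapped, at 170.6 (160.1 to 181.6) against 163.0 (158.4 to 167.7). The median number per model at blastula was 19 peaks in these 40 members and 16 in the other 205. Peaks within 1 model are not independent of each other, so the intervals in these comparisons are too narrow. No test across models was made of these differences.

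An accessible peak within 1 kb of the annotated start was found in 17.4% of the 259 members at the 16-cell stage, 62.2% at blastula, 64.9% at gastrula, 60.6% at prism and 47.5% at pluteus. Over all 30705 models these shares were 10.1%, 41.3%, 44.6%, 38.6% and 24.6%. Set beside the short-span partners the intervals overlapped, with 14.7% of 211 matched members and 11.0% of 218 partners at the 16-cell stage, 57.8% of these members (95% exact interval 50.8 to 64.6) and 55.5% of these partners (48.6 to 62.2) at blastula, and 59.7% and 59.2% at gastrula. With exon number matched, start peaks were found in 16.7% of 233 members (12.2 to 22.2) and 5.53% of 235 partners (2.98 to 9.27) at the 16-cell stage, where the intervals did not overlap. At blastula they were found in 60.5% of these members (53.9 to 66.8) and 51.9% of these partners (45.3 to 58.5), and at gastrula in 63.1% and 58.7%.

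**Figure D5:**
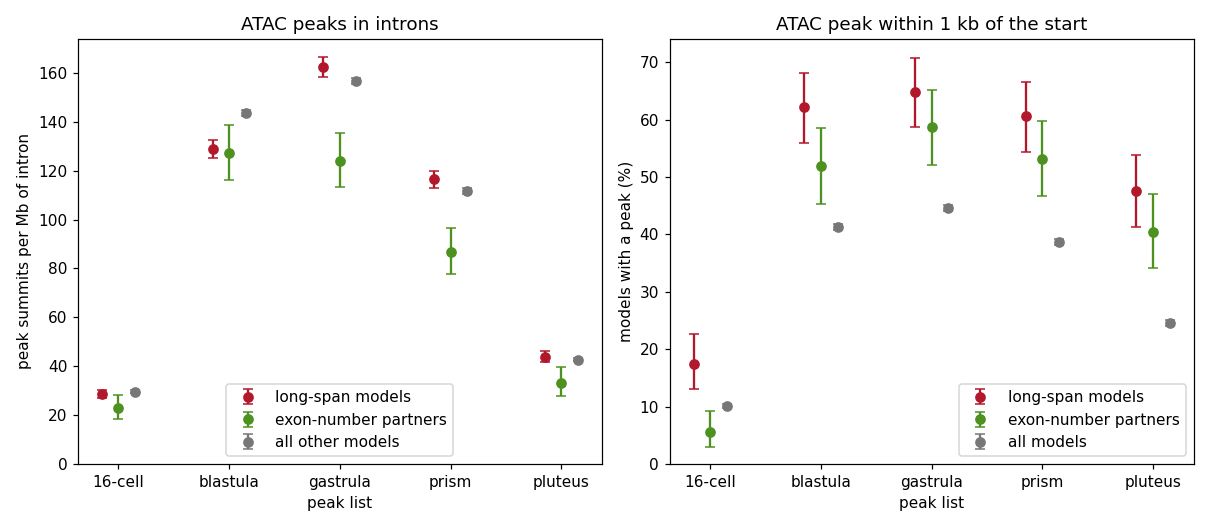
Left, ATAC peak summits per Mb of intron (y axis) in the 5 peak lists (x axis) for long-span models, exon-number partners and all other models, with 95% Poisson intervals. Right, percentage of models with a peak within 1 kb of the start for long-span models, exon-number partners and all models, with exact 95% intervals. Long-span introns hold 129.1 peaks per Mb at blastula and 162.4 at gastrula, and other introns 143.7 and 156.7.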

How the data were processed

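The deposited table gives whole-number read counts per gene model, made by the authors with STAR 2.5.2b and featureCounts 1.6.1 per the submitters' processing notes. The deposited peak lists give a signal score and a −log10 p-value per peak from the authors' calls, with Bowtie2 2.4.1 and Genrich per the submitters' processing notes. Lists are named for all samples of a stage and were taken as pooled, and the 2 blastula lists are identical. CUT&Tag samples were not analysed here.

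Counts of 17 developmental libraries were fitted in edgeR 4.0.16 (R 4.3.3) as a natural spline of stage order (4 degrees of freedom) after TMM scaling and a filterByExpr filter on low counts, with Benjamini-Hochberg adjustment. DESeq2 1.42.0 was an alternative. The fit was tested on simulated data for the late minus early change only, so calls with the blastula window were not tested in this way. It called 73 of 100 models with a true log2 change of 2 and 4 of 100 with a true change of 1. Of 20823 models with no true change it called 2. Peak overlaps used bedtools 2.31.1. TPM was computed from counts and exon length.

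The text names the 2 rising and 2 falling members with the largest fitted change, adjusted p under 0.05, 5 CPM in a developmental library and no overlap between windows. Members and lists were chosen with earlier results of these data known. The blastula window, the exon-number partners, the span classes, the halved counts in intervals, non-overlap without prism and the removal of scaffolds with no peak were chosen after seeing the data.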

Additional observations from a re-analysis of the deposited data

Results flagged for a closer look

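In 17 groups of 4 libraries, 2 had 1 library far from the other 3, where chance alone flags about 1 in 20 groups. The median of the short-span partners was 2.80 TPM at prism, against 10.2 to 10.4 TPM in the other 3 of the last 4 stages. PL14285 had 0.0872 CPM at the 8-cell stage, a single halved count, and 0 in the egg, 2-cell and 4-cell libraries.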

How the results depend on the processing

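No paired analysis was possible because each stage and tissue has 1 library. Across scalings, filters, spline settings, tools and narrower sets of members, no share of members called changed by over 1.5 times except where given here. Leaving out each developmental library in turn gave, for members and then short-span partners, 17.9% to 25.6% and 27.6% to 38.8% higher late than early, 26.7% to 32.6% and 23.5% to 33.2% lower late, 62.8% to 75.3% and 74.1% to 86.3% with a trend, 27.7% to 36.4% and 21.9% to 26.5% lower in the blastulae, 7.72% to 16.6% and 23.7% to 34.5% higher in the blastulae, and 18.4% to 23.9% and 12.4% to 22.1% higher late than in the blastulae. The low value of 7.72% was without the egg. Leaving out each adult library other than tubefeet gave 57.9% to 72.2% of members and 23.6% to 31.5% of partners highest in tubefeet. With partners at most a twentieth of the member's span, matched members had 4.59 TPM at the 8-cell stage, and partners 3.57 TPM there, 4.22 TPM at swimming blastula, 6.46 TPM at pluteus and 2.80 TPM in tubefeet. With no minimum of exon blocks, partners had 6.64 TPM at the 8-cell stage and 5.63 TPM at swimming blastula. TMM-scaled TPM gave 7.68 TPM in matched members and 5.20 TPM in partners in tubefeet, and 7.81 TPM in partners at pluteus. Partners with a span at most a twentieth were lower late in 17.1%, and with library size alone 11.0% of partners were higher late than in the blastulae. With onset set at 50% of the developmental maximum, 27.3% of members and 32.8% of partners were on in the egg. Restriction to tubefeet at 4 times the next tissue held for 13.3% of members and 2.05% of partners, with library size alone for 2.05% of partners and with a prior of 2 CPM for 0 partners. Counting any overlap with an intron, which adds peaks whose summit lies outside it, gave ratios of members to other models of 0.903 at the 16-cell stage, 0.810 at blastula, 0.945 at gastrula, 0.943 at prism and 0.899 at pluteus. Keeping the scaffolds with no peak gave 0.867 at blastula, 1.00 at gastrula and 1.01 at prism, since they add introns but no peaks. Leaving out 1 kb around annotated starts gave 1.10 at pluteus. The cause of the other changes was not tested. With 1 library per stage and pooled peak lists, no value holds replicate error.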
